A study of Mus with 5 samples.

Results

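The retinoic acid receptors (RARα, RARβ and RARγ, encoded by Rara, Rarb and Rarg) and the retinoid X receptors (Rxra, Rxrb and Rxrg) are nuclear receptors through which retinoic acid (RA), a metabolite of vitamin A, controls transcription. RARs bind DNA as heterodimers with RXRs at retinoic acid response elements, recruit corepressors without ligand and exchange them for coactivators when RA binds. BATF is an AP-1 family factor that drives effector differentiation of activated T cells. Described here is where RARα and BATF were found at the 6 genes that encode the receptors themselves, with and without RA. Members were all peaks to which the authors' annotation gave at least 1 of the 6 gene symbols. They numbered 32 of 27480 peaks over 4 peak lists, that is 1 of 1172 RARα control peaks, 1 of 597 RARα RA peaks, 22 of 15812 BATF control peaks and 8 of 9899 BATF RA peaks.

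The peaks came from chromatin immunoprecipitation sequencing (ChIP-seq), in which an antibody recovers the DNA fragments bound by a protein and a region where fragments pile up over a control immunoprecipitate is called as a peak. Splenic CD8 T cells of WT mice were stimulated through CD3 and CD28 with IL-2 for 24 h, rested in IL-2 at 100 U/ml for 24 h, and exposed for 1 h to 50 nM RA (RA) or to no RA (control). There was 1 list for each antibody and condition, each called on 2 pooled ChIP files against the same normal rabbit IgG file. The labels of single samples name other interleukins than the shared protocol does, give neither the age nor the number of mice, and do not say whether the IgG cells received RA. The pools held 22655611 (RARα control), 22475060 (RARα RA), 23110180 (BATF control) and 16424269 (BATF RA) fragments, against 11410673 for IgG. With 1 pool per condition no replicate spread exists, so every difference below describes these pools and carries no test. A region is listed only if it reaches a p-value of 0.001 (RARα) or 1e-05 (BATF), so a gene without a peak had no region past that cutoff, which is not the same as no binding. Peak lists hold no expression values, so the labelled cell type could not be checked against its markers here.

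Rara stood out among the receptor genes by the number of BATF peaks. It held 12 BATF control peaks and 6 BATF RA peaks, followed by Rarg and Rxrb with 4 and 1 each and by Rxra with 2 and 0. Rarb and Rxrg had no BATF peak in either condition. BATF control peaks were thus found at 4 of the 6 genes, where 48.6% of all protein-coding genes had one, and BATF RA peaks at 3 of the 6, against 38.3% of all. Of the 4 genes with a BATF control peak, 3 also had a BATF RA peak, against 76.5% of all genes with a BATF control peak. These shares of 6 or fewer genes are too small to be set apart from the background.

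Each RARα list had a single peak at the genes of its own family, in Rara for the control and in Rarb with RA. Each therefore reached 1 of the 6 genes, while the share among all protein-coding genes was 7.18% for the RARα control list and 3.19% for the RARα RA list.

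**Figure D1:**
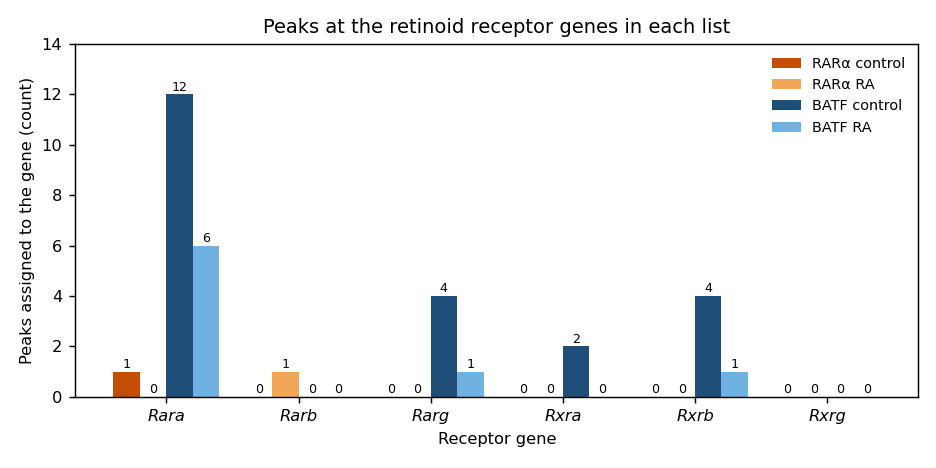
Number of peaks (y axis) that the annotation assigned to each of the 6 receptor genes (x axis) in the 4 lists (bar colors). Rara has 12 BATF control and 6 BATF RA peaks, and RARα has 1 control peak, at Rara, and 1 RA peak, at Rarb.

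Rara, the gene of the receptor that was precipitated, lies on chromosome 11 of mm10 from 98927800 to 98974942 (47.1 kb). A count of 12 or more BATF control peaks was reached by 65 protein-coding genes (0.297% of 21896), and a count of 6 or more BATF RA peaks by 147 (0.671%). With peaks under 1 kb apart merged, Rara had 7 BATF control peaks, a count that 215 genes (0.982%) reached, and 6 BATF RA peaks, which 82 genes (0.374%) reached. Of the 12 control peaks, 11 lay inside the outer limits of the gene and 1 lay 52241 bp outside it. Distances within the gene are given from its lower limit, the end with the smaller coordinate. Along the gene the peaks formed a group of 7 with summits from 5.70 to 20.4 kb and a group of 4 with summits from 31.9 to 35.9 kb, a grouping made after the positions were seen.

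The upstream group held the strongest site. The BATF control peak from 98941479 to 98942610 was classed as promoter. Its summit reached 83 fragments and a fold enrichment, the fragments plus 1 over the local IgG level plus 1, of 11.9. That fold exceeded 93.0% of all BATF control peaks. With RA the site was listed from 98941511 to 98942560 and reached 45 fragments (fold 8.91). Relative to depth these were 3.59 and 2.74 fragments per 1000000 fragments of the pool (FPM). The RA level was 0.763 times the control level, with a 95% interval of 0.519 to 1.11 that covers counting error only and includes equality.

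Next to it, the promoter peak from 98937343 to 98939001 reached 52 fragments (fold 7.48) in the control, and its RA counterpart from 98937680 to 98938095 reached 36 (fold 9.25). The fold was higher with RA although the level in FPM was nearly the same, 2.25 in the control and 2.19 with RA. The difference lay in the local IgG level. It was 6.0 behind the control summit, or 4.25 scaled to the depth of the RA pool, and 3.00 behind the RA summit. The promoter peak from 98939325 to 98941211 went the other way, with 38 fragments (fold 6.42) in the control and 18 (fold 3.57) in the RA peak from 98939469 to 98939970. Its RA level was 0.667 times the control level, again with an interval that includes equality (0.358 to 1.20). Both promoter peaks were wide in the control, 1659 and 1887 bp, and narrower with RA, 416 and 502 bp. Regions were shorter with RA over the whole lists too, with a median of 609 bp in the control and 460 bp with RA.

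The remaining upstream sites were weaker, and those listed in both pools had ratios whose counting intervals included equality. The outermost one, from 98933354 to 98933645, was classed as intergenic by the annotation although the RefSeq table places it inside the gene, and had 26 control fragments (fold 5.34) and 22 RA fragments (fold 7.28). An exonic site in a SINE repeat, from 98947604 to 98948277, had 31 control fragments and 23 RA fragments, with a fold of 4.52 and 4.51 and summits 8 bp apart. In the first intron, 25 control fragments (fold 5.68) marked the peak from 98945361 to 98945852, and 20 RA fragments (fold 6.21) the peak from 98945092 to 98945796. The intronic peak from 98943946 to 98944405, which reached 29 fragments (fold 6.13), was the only one of the 7 upstream control peaks that no BATF RA peak overlapped. Over the upstream group the listed regions covered 6596 bp in the control and 3497 bp with RA, in lists whose regions were shorter with RA as a whole.

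At the internal start of Rara, all 4 BATF control peaks had no overlapping BATF RA peak. Rara is known to be transcribed from an upstream and an internal promoter, and the internal one is known to respond to RA. The annotation classed 3 of the 4 as promoter peaks of a shorter Rara transcript, from 98959553 to 98959947 (29 fragments, fold 5.33), from 98960365 to 98960671 (22 fragments, fold 5.86) and from 98961133 to 98961434 (17 fragments, fold 4.61). The fourth, from 98963391 to 98964123, lay in the first intron of that transcript with 28 fragments and a fold of 5.92. Of these control levels, 0.736 and 0.952 FPM lay below those of the weaker upstream sites that stayed listed with RA (1.08 to 1.34). The others, 1.21 and 1.25 FPM, lay within that range, as did the upstream site without an overlapping RA peak (1.25). Over the whole list, 54.4% of the BATF control peaks were overlapped by a BATF RA peak, so loss of a single site from the list was common. The peak beyond the gene, from 99027183 to 99027528, reached 18 fragments (fold 4.86), lay closer to Top2a, a topoisomerase gene, and was not overlapped with RA either. A stronger BATF RA peak, not assigned to Rara, lay 2718 bp from it, from 99022988 to 99024465 (106 fragments, fold 8.55). The difference between the 4 internal and 7 upstream sites was seen before it was counted and was not tested.

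**Figure D2:**
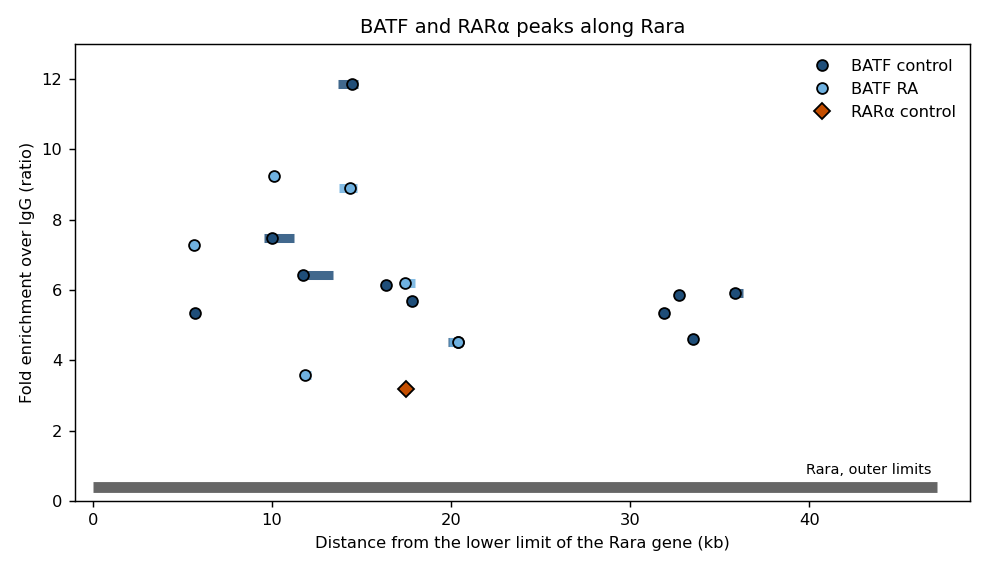
Fold enrichment over IgG (y axis) of each peak inside Rara against its distance from the lower limit of the gene in kb (x axis), with symbols at the summits and bars for the width of the listed region. BATF peaks of both conditions lie between 5.63 and 20.4 kb, where the control point near 20.4 kb is hidden by the RA point, while the 4 peaks from 31.9 to 35.9 kb are in the control list alone. The peak beyond the gene is not drawn.

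The RARα control peak in Rara was of middling strength for its list. It lay in the first intron from 98945208 to 98945478. The summit held 13 fragments, 0.574 FPM (exact Poisson 95% interval 0.306 to 0.981), a fold of 3.19 and a -log10 p of 4.88. Its fold exceeded that of 53.0% of the 1172 peaks and its p-value was smaller than that of 49.6%. It would not have been listed at the stricter cutoff used for BATF. It shared 118 bp with the BATF control peak of the same intron, with summits 333 bp apart, and lay wholly within the BATF RA peak, whose summit was 8 bp from its own. Of all RARα control peaks, 53.4% overlapped a BATF control peak, so this overlap is common in the list.

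With RA, no RARα peak lay in Rara, and the nearest one on the chromosome was 469257 bp from the gene. At the IgG level of the site, scaled to the RARα RA pool, 10 fragments would have reached the cutoff, provided that the region was at least 249 bp long, the shortest listed. A level of 9 fragments or fewer against 13 in the control is thus what the lists allow at this point, at nearly equal depth. The lists set no lower bound on the RA level. A level of 9 fragments would lie within the counting interval of the control value, and lower levels might not.

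Rarb, whose own promoter contains the best known response element for RARs, showed no peak there in any of the 4 lists. The gene is by far the longest of the family, 651 kb on chromosome 14 from 16430839 to 17082331. Its 1 peak, in the RARα RA list from 16689754 to 16690038, lay in an intron at 39.8% of the length of the gene and inside a LINE repeat of the L1Md_F2 family. It had 9 fragments, the fewest of any peak in that list and a number shared by 82 of its 597 peaks, a fold of 2.53 and a -log10 p of 3.01. A larger p-value was held by 17 peaks. The same repeat family underlay 10 RARα RA and 6 RARα control peaks, and LINE repeats underlay 18.8% of the RARα RA list and 7.51% of the RARα control list. Copies of such a repeat are nearly alike, so the placement of reads there is uncertain. No BATF RA peak lay within 5 kb of it, as for most RARα RA peaks, of which 16.4% had one. In the control the same number of fragments, 9, would have reached the cutoff, so presence in one list and absence from the other can rest on a single fragment. The nearest BATF control peak to Rarb was 64809 bp away, at the promoter of Top2b, which encodes a DNA topoisomerase.

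Rarg, the third RAR, lies on chromosome 15 from 102234938 to 102257522 (22.6 kb). Its 4 BATF control peaks were all inside the gene. The strongest, from 102243426 to 102244013, was classed as promoter and reached 27 fragments (fold 5.53). Beside it lay a promoter peak from 102244293 to 102244568 that reached 16 (fold 4.20). The third, at the annotated start of a transcript from 102245694 to 102246962, reached 30 fragments but only a fold of 3.06, since its IgG level was 9.00, or 3.15 times the lowest level of the list. Only 3.23% of the BATF control peaks had a lower fold. The fourth, from 102235238 to 102235769, was in the last exon, with 21 fragments and a fold of 3.62.

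With RA, 1 Rarg peak was listed, from 102246857 to 102247194, where 17 fragments gave a fold of 3.73. It overlapped the third control peak, and its level was 0.797 times the control level with an interval from 0.413 to 1.49. No RARα peak was assigned to Rarg. The nearest RARα control peak lay 9501 bp from it, from 102225062 to 102225437, in the neighboring gene Itgb7, which encodes the integrin chain of gut-homing receptors. That peak had 14 fragments and a fold of 3.02 and lay inside the BATF control region 102224715 to 102225597, whose fold was 5.93. It is named here because it was the only RARα peak within 10 kb of a receptor gene that the annotation gave to another gene.

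Rxra, which encodes the RXR found in most tissues, lies on chromosome 2 from 27676445 to 27763319 (86.9 kb). It had 2 BATF control peaks, each annotated to the first intron of a different transcript. One, from 27693630 to 27694133, reached 33 fragments (fold 4.80). The other, from 27728485 to 27729234, reached 43 (fold 4.35), at a site where the IgG level was 9.00. Neither had a BATF RA peak within 5 kb, and the nearest one to the gene was 160874 bp away. The nearest RARα peaks were 1898545 bp (control) and 1935097 bp (RA) from the gene.

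Rxrb lies in the major histocompatibility complex on chromosome 17, from 34031812 to 34038403 (6.59 kb). One BATF control peak, from 34031848 to 34032639, lay at its lower end, was classed as promoter and was assigned to Rxrb and to its neighbor Slc39a7, a zinc transporter gene. It had 42 fragments and a fold of 6.52, above 66.4% of the list, and no BATF RA peak overlapped it. The nearest BATF RA peak to the gene lay 3729 bp away, at H2-Ke6, with a fold of 7.34.

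The other peaks given to Rxrb were far from it. They lay 63053, 64468 and 71252 bp beyond the gene, were classed as intergenic, and each carried the names of 15 or 16 other genes, among them Psmb8 and Psmb9 (immunoproteasome subunits), Tap1 (a peptide transporter), H2-Oa and H2-DMa (class II chaperones), Brd2, Ring1 and Col11a2. The strongest, from 34101456 to 34102031, reached 39 fragments (fold 9.07) in the control, and its RA counterpart from 34101692 to 34101970 reached 21 (fold 6.60), or 0.758 times the control FPM (0.423 to 1.32). The nearest coding gene to both was H2-Oa. The others had 17 fragments each, with folds of 4.45 and 3.56, and no overlapping BATF RA peak. The annotation alone ties these 3 sites to Rxrb.

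Rxrg, on chromosome 1 from 167598362 to 167639623 (41.3 kb), had no peak in any list. The nearest BATF peaks were 247812 bp (control) and 247817 bp (RA) away, both at the promoter of Aldh9a1, and the nearest RARα peaks were 3461402 and 1644835 bp away. Rxrg is known mainly from muscle and brain. No BATF or RARα peak of any list lay within 100 kb of the gene.

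**Figure D3:**
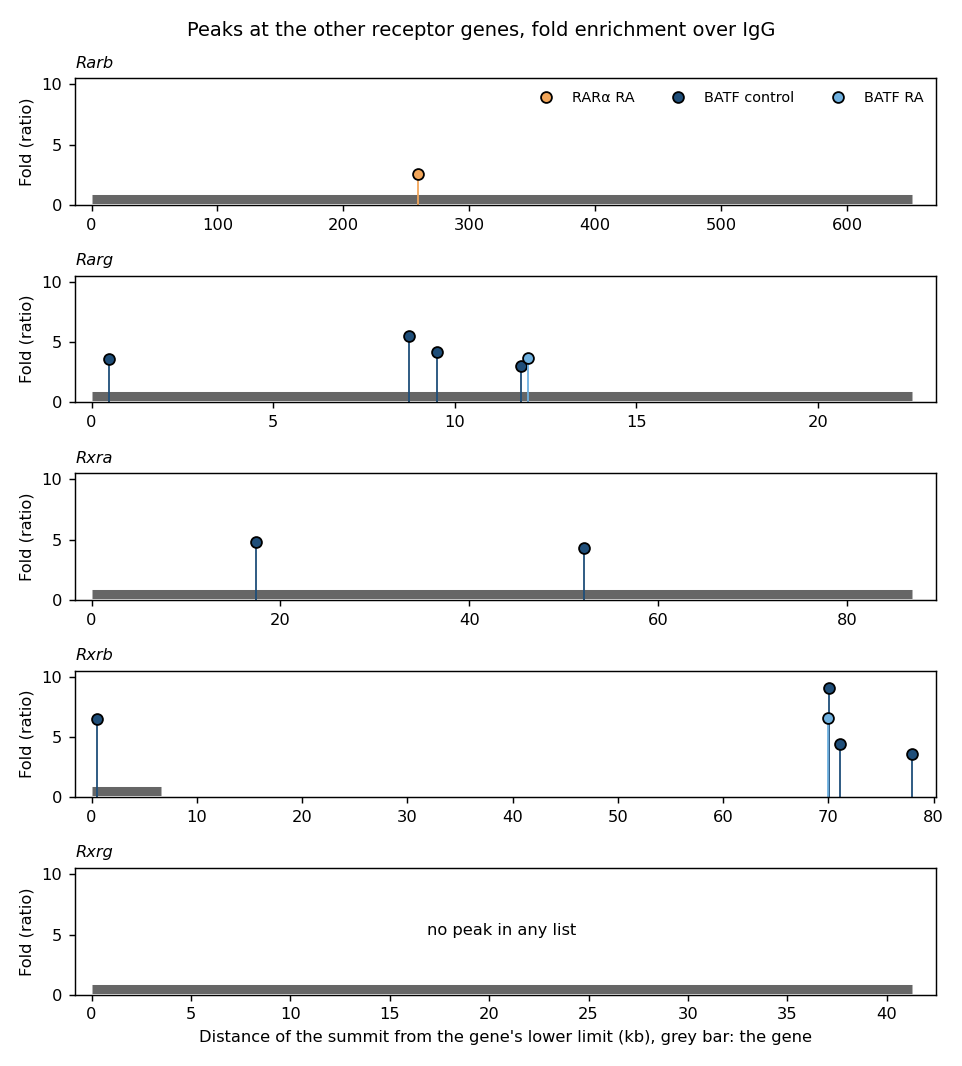
Fold enrichment over IgG (y axis) of each peak assigned to Rarb, Rarg, Rxra, Rxrb and Rxrg against the distance of its summit from the lower limit of the gene in kb (x axis), with the gene as a gray bar. The single RARα RA peak of Rarb has a fold of 2.53, 3 of the 4 Rxrb control peaks lie more than 63 kb beyond the gene, and Rxrg has none.

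Over all 6 genes, 10 of the 22 BATF control peaks were classed as promoter (45.5%), 5 as intron, 5 as intergenic and 2 as exon, whereas 58.7% of the whole list were promoter peaks. Of the 8 BATF RA peaks, 4 were promoter peaks (50.0%, against 64.6% of the list). The median fold of the receptor peaks was 5.33 in the control, where the whole list had 5.40, and ran from 3.06 to 11.9. It was 6.41 with RA, against 5.29 in the list.

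Of the 22 BATF control peaks, 15 had a BATF RA peak within 5 kb (68.2%), against 69.9% of the whole list. At least 1 bp was shared by 8 (36.4%), 6 of them in Rara, against 54.4% of the list. Some control peaks at Rara, Rarg and Rxrb had a BATF RA peak within 5 kb that did not overlap them. The stricter count, by overlap, is the one described here. In the 8 overlapping pairs the fold was lower with RA in 4, where 75.5% of the 8605 overlapping pairs of the whole list had the lower fold with RA. By FPM, 5 of the 8 pairs were lower with RA, with a median ratio of 0.886 (0.838 over the list). In none of the 8 did the 95% counting interval of the ratio exclude 1.

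The other 14 control peaks had no overlapping BATF RA peak. The BATF RA pool was 71.1% as deep as the control pool, so each control summit was scaled to that depth and set against the IgG level scaled likewise. All 14 would still have reached the cutoff of 1e-05, as would 94.7% of the 7207 control peaks without overlap in the whole list. The margin was small for several. The Rxrb site with the lowest fold scaled to 12 fragments where 12 were needed, and the Rarg peak from 102244293 scaled to 11 where 11 were needed. In fragments, it was widest at the Rxrb promoter, with 30 fragments where 15 were needed, and at the Rxra site from 27728485, with 31 where 20 were needed. Summits that just passed a cutoff tend to be overestimates, and a region also had to be at least 231 bp long to be listed, so the scaling is a guide and not a test. Depth, the yield of a single immunoprecipitation and an effect of RA cannot be told apart with 1 pool per condition.

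**Figure D4:**
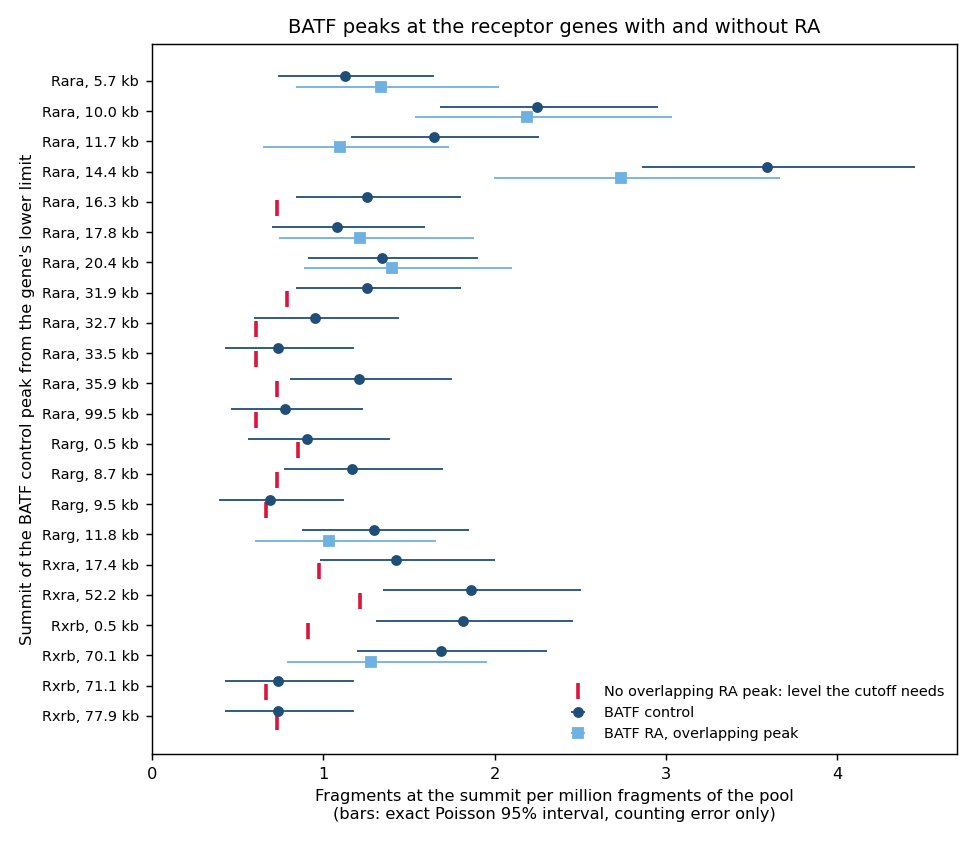
Fragments at the summit in FPM (x axis) for each of the 22 BATF control peaks (rows, named by gene and summit position in kb from the gene's lower limit) and for the overlapping BATF RA peak where one was listed, with exact Poisson 95% intervals for counting error. Red ticks mark the level that the cutoff needed at the 14 sites without an overlapping RA peak, and every control point lies at or above its tick.

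Genes that work with the receptors were counted in the same way. Of 13 nuclear receptors that pair with RXRs or bind beside them, 10 had a BATF control peak (76.9%, against 48.6% of all protein-coding genes) and 5 a BATF RA peak (38.5%, against 38.3%). These counts follow the authors' symbols, as does the share of all genes, and include peaks outside the gene. The only BATF control peaks of Ppara, Pparg and Vdr were intergenic, 76787, 44687 and 4658 bp from the gene. RARα control peaks were listed at Nr4a1, an orphan receptor induced by T cell receptor signals (fold 5.23), and at Pparg (fold 2.83), so 15.4% of the 13 had one, against 7.18% of all. No RARα RA peak was listed at any of the 13, against 3.19% of all. Thra, the thyroid hormone receptor gene on the same chromosome as Rara, had 5 BATF control and 4 BATF RA peaks. Vdr, which encodes the vitamin D receptor, had 1 and 0.

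Coregulators are the proteins that receptors recruit. A BATF control peak was listed at 11 of 12 (91.7%, against 48.6% of all genes) and a BATF RA peak at 10 (83.3%, against 38.3%). An RARα peak was listed at 4 of the 12 in each condition (33.3%, against 7.18% in the control and 3.19% with RA). Ncoa3 and Nrip1 had one in both. The strongest at Ncoa3 lay inside the gene in each condition. Those given to Nrip1 were intergenic, 61627 bp (control) and 61597 bp (RA) from the gene. The steroid receptor coactivator gene Ncoa2 had 6 BATF control peaks, the strongest with a fold of 34.3, and 4 with RA, the strongest with 23.8. The coactivator gene Ncoa3 had the strongest RARα peaks of the 12 coregulator genes, with a top fold of 13.3 without RA and 6.62 with RA. Ncoa1 had an RARα RA peak (fold 3.29) and no BATF peak.

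Of 13 genes that make, carry or degrade RA, 2 had a BATF peak in each condition (15.4%, against 48.6% of all genes in the control and 38.3% with RA), and none had an RARα peak. The genes with a BATF peak were Rdh10, a retinol dehydrogenase gene (3 control and 2 RA peaks), and Cyp26b1, an RA-degrading hydroxylase gene whose 1 control peak lay 23232 bp away. The strongest control peak of Rdh10 was a promoter peak at the gene. Its RA peaks lay 174 and 95369 bp from the gene, and the farther, an intergenic one, was the stronger. Cyp26a1, Crabp2, Stra6 and Dhrs3 were among the 11 without a peak in any list. The members of these lists are few and differ in length, so their counts are descriptions, with no test.

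**Figure D5:**
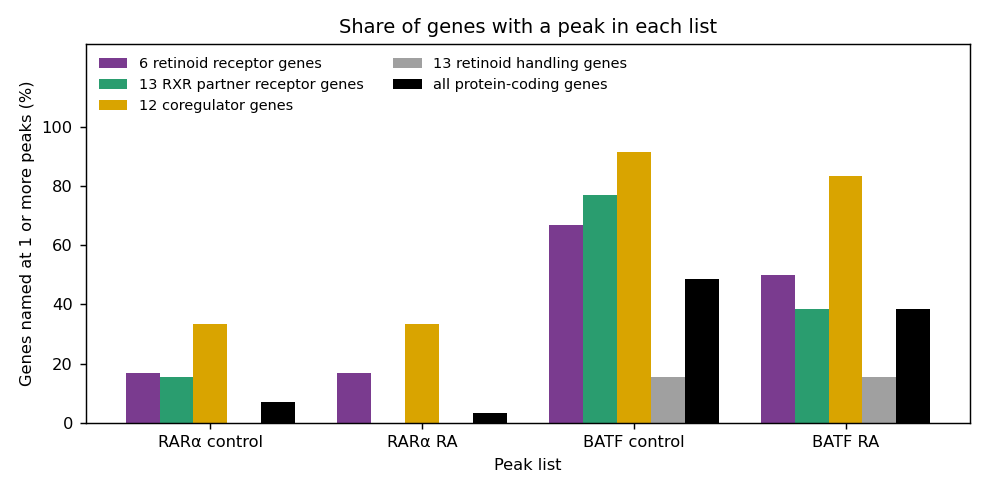
Share of genes named at 1 or more peaks (y axis, %) in each list (x axis) for the 6 retinoid receptor genes, 13 partner receptors, 12 coregulators, 13 retinoid handling genes and all 21896 protein-coding genes. For BATF control peaks the shares are 66.7%, 76.9%, 91.7%, 15.4% and 48.6%.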

How the data were processed

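Per the methods and the file headers, the authors sequenced paired ends and called peaks on duplicate-free mm10 (GRCm38) alignments with MACS 2.2.7.1, from 2 pooled ChIP files against 1 IgG file. Bowtie2 and HOMER are named in the submitters' processing notes. The deposited pileup (signal) counts fragments over the summit. In the BATF control list it had been scaled by 0.988, and was divided by that factor here. The deposited fold enrichment is a ratio of pileup plus 1 to the local IgG level plus 1, from which the IgG level was recovered. The deposited p-value and q-value are on the -log10 scale; a Poisson tail of pileup and IgG level gave the deposited p within 0.05 for at least 99.8% of peaks in each list. The header says that q was not calculated, and q served only as an alternative. All 4 lists were used as deposited.

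Gene limits came from a RefSeq table for GRCm38.p6, which has no strand, and at least 99.6% of the names in each list matched it. Peaks were assigned by the authors' symbols, and were shared if they lay within 5 kb, as in the methods, or overlapped by 1 bp. Intervals at 95% are exact Poisson for levels and conditional exact binomial for ratios, and cover counting error only. Overlap steps were tested on simulated data. The genes described are the 6 receptors, the genes named beside them at a peak, the partner, handling and coregulator lists, and for a receptor with at least 3 peaks the 3 genes of most similar peak counts. Members and lists were chosen with earlier results of these data known. Sequences and motifs were not analysed here. The values of 1 coregulator gene are not reported here. The tools were Python 3.11.15 with scipy 1.17.1, pandas 2.3.3, matplotlib 3.10.9 and numpy 2.4.6.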

Additional observations from a re-analysis of the deposited data

How the results depend on the processing

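No paired analysis was possible because each condition has only 1 list, called on pooled files, which also leaves no replicate to omit. Of 208 values recomputed, 161 were unmoved (within 1.5 times a count or median, or within the 95% Wilson interval of a share) and 47 moved. The cause was not tested, and a change of direction was not scored. The unmoved values include some that could not move, such as BATF counts refiltered at the 1e-05 cutoff of their own lists. The scaling to the RA depth and the merged gene ranks were chosen after seeing the data. With p of 1e-05 or smaller, q of 0.05 or smaller, or a fold of at least 5, the RARα peaks at Rara (control) and Rarb (RA) both fell to 0, as did the RARα totals and the genes with a RARα peak. A fold of at least 5 left 12 BATF control peaks in all, with 1 at Rarg, 0 at Rxra and 2 at Rxrb, and 5 BATF RA peaks in all, with 0 at Rarg. Within 10 kb of the gene in place of the authors' symbols, Rarg gained 1 RARα control peak (2 peaks, at 2 genes) and had 3 BATF RA peaks, and Rxrb had 2. Within 100 kb, RARα control peaks numbered 3 at 3 genes, with 1 each at Rarg and Rxrb. BATF control peaks then numbered 57 in all, 19 at Rara, 1 at Rarb, 15 at Rarg and 20 at Rxrb, and BATF RA peaks 30 in all, 1 at Rarb, 9 at Rarg and 12 at Rxrb. With peaks under 1 kb apart merged, Rara had 7 BATF control peaks, and the genes with at least as many peaks as Rara went from 65 to 215 (BATF control) and from 147 to 82 (BATF RA). BATF control peaks with an RA peak fell from 68.2% within 5 kb to 45.5% within 1 kb and 36.4% by overlap. The RARα peaks rest on 13 (Rara) and 9 (Rarb) fragments.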

Other observations

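Some genes had nearly the same number of peaks as a receptor gene in all 4 lists. Over the counts in the 4 lists, the summed absolute difference from Rara was 1 for Fam107b and for Traf1, an adaptor of TNF receptor signaling, and 2 for Rps6ka1, which encodes a ribosomal S6 kinase. Fam107b had 12 BATF control and 6 BATF RA peaks and no RARα peak. Traf1 had the same BATF counts with 2 RARα control peaks. For Rarg and Rxrb, 117 other protein-coding genes had exactly the same counts (4 BATF control, 1 BATF RA and no RARα peaks), of which Dapk2, Depdc1b and Ckap2l had the strongest BATF control sites, with folds of 26.6, 20.9 and 20.8. Counts of 4 lists that share 1 IgG file are a coarse measure, and no shared function follows from them.

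The stretch of chromosome 15 below Rarg held stronger BATF sites than Rarg itself. A BATF control peak classed as promoter of Itgb7, from 102230090 to 102232463 and 2475 bp from Rarg, reached 87 fragments (fold 8.69), and the BATF RA peak from 102230641 to 102231734 reached 59 (fold 8.02). At the Rxrb end of the histocompatibility complex, the peak at H2-Ke6 from 34027107 to 34028181 reached 63 control fragments (fold 10.1), and its RA counterpart reached 32 (fold 7.34). These neighbors are described because they lie within 10 kb of a receptor gene, and were chosen after their values were seen.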
